A study of Mus musculus with 6 samples.

Results

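The pair of liver genes described here is Pdk4 (Gene ID 27273) and Igfbp1 (Gene ID 16006), chosen by name as fasting-induced, insulin-repressed genes. Both members were found, 2 of the 205 genes in the deposited table, and the table pairs no gene with a symbol, so the symbols come from a RefSeq gene table. Whole-liver RNA was sequenced from 6 aged C57BL/6 mice (18 months), with 1 library per mouse. The control group held 3 LoxP mice, which carry floxed SIRT2 alleles without Cre, and the other group held 3 SIRT2-KOhep mice, which carry the same floxed alleles and Cre under the albumin promoter. Albumin-driven Cre acts in hepatocytes, so SIRT2 of the other liver cells is not deleted by design. The sources used here do not give the sex of the sequenced mice or whether they were fed or fasted when the liver was taken.

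PDK4 is a mitochondrial kinase that phosphorylates the pyruvate dehydrogenase complex and so holds back the entry of glucose carbon into the tricarboxylic acid cycle when fatty acids are the fuel. IGFBP1 is a secreted protein of hepatocytes that binds insulin-like growth factors in plasma. In the fasted liver the transcription factor FOXO1 stays in the nucleus and both genes are transcribed. After a meal, insulin acts through AKT to phosphorylate FOXO1, which then leaves the nucleus, and the transcripts of both genes fall. Glucocorticoids also raise both genes, PPAR-alpha raises Pdk4, and cell stress and hypoxia raise Igfbp1. SIRT2 is a deacetylase for which FOXO1 has been described as a substrate.

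Pdk4 lies on the minus strand of chromosome 6 of GRCm38 (mm10), from 5483351 to 5496309, where GENCODE M21 gives the principal transcript 11 exons. Igfbp1 lies on the plus strand of chromosome 11, from 7197782 to 7202546, with 4 exons. The sequences just upstream of both genes are shown because the IGFBP1 promoter is a standard example of the insulin response sequence that FOXO1 binds. The letters CAAAACA, a variant with 1 letter changed (CAAAATA) and the forkhead core (GTAAACA) were searched as written and on the opposite strand in the 250 bases before the RefSeq start of each gene (GRCm38.p6). Igfbp1 held 2 matches and Pdk4 held 0. In Igfbp1, CAAAACA lay 108 to 102 bases before the start and CAAAATA lay on the opposite strand 97 to 91 bases before it, so that they face each other across 4 bases. The capitals below mark these matches, and the bases next to the start that GENCODE places inside the transcript are left out (31 for Pdk4, 5 for Igfbp1).
Igfbp1 (chr11:7197537-7197781, plus strand): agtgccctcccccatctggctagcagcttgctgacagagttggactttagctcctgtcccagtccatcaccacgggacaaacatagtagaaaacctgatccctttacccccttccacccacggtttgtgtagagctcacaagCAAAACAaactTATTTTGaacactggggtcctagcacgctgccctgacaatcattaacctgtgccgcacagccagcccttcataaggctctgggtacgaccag
Pdk4 (chr6:5496310-5496528, minus strand): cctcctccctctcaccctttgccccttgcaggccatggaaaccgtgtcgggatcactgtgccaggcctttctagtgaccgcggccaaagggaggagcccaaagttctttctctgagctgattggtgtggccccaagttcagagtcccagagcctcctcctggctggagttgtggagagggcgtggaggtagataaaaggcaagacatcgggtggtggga

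Among the 32851 mouse promoter windows of the same length, 5.56% held CAAAACA, 3.95% held CAAAATA and 0.381% held both. The forkhead core was held by 3.17% and at least 1 of the 3 by 11.9%. A match describes letters in this window and not occupancy by a factor, and the absence of a match in Pdk4 says nothing of sites elsewhere in that gene.

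The values are FPKM (fragments scaled by transcript length and by the mapped fragments of the library), which allow levels to be compared between genes. The deposited table is a selection: where neither group mean was 0, as for 182 genes, 175 pairs of group means lay at least 1 log2 unit apart. A place in the table thus goes with a difference between these same libraries, and the difference of Pdk4 and Igfbp1 is not independent evidence of a change. The deleted gene followed the labels in every mouse. Sirt2 was at 26.5, 28.6 and 25.8 FPKM in LoxP mice 1 to 3 and at 7.21, 8.45 and 8.58 FPKM in SIRT2-KOhep mice 1 to 3, which is 30.0% of the LoxP mean. In whole liver, fewer cells of a type and less RNA per cell cannot be told apart. None of 11 hepatocyte markers was among the listed genes, so the tissue label was not checked here.

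Pdk4 was a weakly expressed transcript in these livers. The LoxP mice had 0.78, 1.68 and 1.3 FPKM, a mean of 1.25 ± 0.452 (SD, n = 3). The SIRT2-KOhep mice had 5.53, 4.23 and 1.07 FPKM, a mean of 3.61 ± 2.29 (SD, n = 3). SIRT2-KOhep mice 1 and 2 were above every LoxP mouse, at 4.41 and 3.38 times the LoxP mean, while mouse 3 lay inside the LoxP range at 0.854 times that mean. The groups therefore overlapped. The mean was 2.88 times as high in SIRT2-KOhep livers, and the spread was wider there, since the highest mouse exceeded the lowest 5.17-fold against 2.15-fold in LoxP livers.

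Igfbp1 was abundant by comparison. The LoxP mice had 47.4, 63.3 and 16.0 FPKM, a mean of 42.3 ± 24.1 (SD, n = 3). The SIRT2-KOhep mice had 71.2, 158 and 40.9 FPKM, a mean of 89.9 ± 60.7 (SD, n = 3). Again SIRT2-KOhep mice 1 and 2 were above every LoxP mouse, at 1.68 and 3.74 times the LoxP mean, and mouse 3 lay among the LoxP mice at 0.967 times it. The mean was 2.13 times as high in SIRT2-KOhep livers. Unlike Pdk4, Igfbp1 varied about as much within the LoxP group as within the other, 3.96-fold against 3.86-fold between the lowest and highest mouse, and LoxP mouse 3 was the lowest of all 6. The paper reports that mass spectrometry of plasma showed no difference in IGFBP1 between aged LoxP and SIRT2-KOhep mice. That is a measure of plasma protein and not of liver mRNA.

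**Figure D1:**
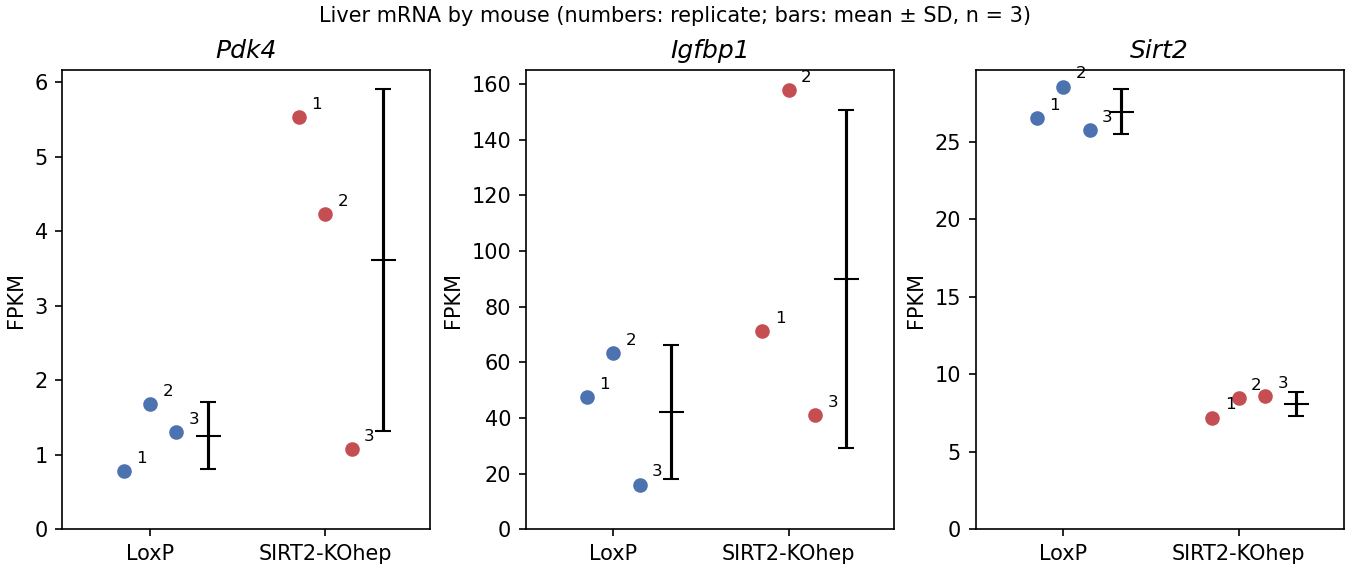
FPKM of Pdk4, Igfbp1 and Sirt2 in each liver, LoxP in blue and SIRT2-KOhep in red, numbered by replicate, with the mean ± SD of 3 mice in black. Sirt2 separates the genotypes, while SIRT2-KOhep mouse 3 lies among the LoxP mice for Pdk4 (1.07 FPKM) and Igfbp1 (40.9 FPKM).

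For neither gene could the difference between genotypes be told from 0 with these mice. On log2(FPKM + 1), the log2 fold change of Pdk4 was 0.90 (standard error 0.52, 95% interval -0.33 to 2.12, adjusted p = 0.300 in limma by Benjamini-Hochberg over all 205 genes). For Igfbp1 it was 1.06 (standard error 0.76, 95% interval -0.75 to 2.87, adjusted p = 0.310 in limma). Both intervals include 0 and reach well above the estimates. A two-sided exact permutation test of the mice gave p = 0.3 for Pdk4 and p = 0.4 for Igfbp1, where 3 mice against 3 cannot go below 0.1. In both genes the SIRT2-KOhep mouse was the higher one in 7 of the 9 possible pairs of a SIRT2-KOhep and a LoxP mouse. The +1 lowers the estimate for a gene as weakly expressed as Pdk4, which was 1.23 with a pseudocount of 0.1 and 1.29 with 0.01. The log2 ratio of mean FPKM, a measure in which the highest mice weigh more than in a mean of logs, was 1.53 for Pdk4 and 1.09 for Igfbp1.

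These counts have to be read against the table they come from. A higher mean in SIRT2-KOhep livers was found for 75.1% of the listed genes, and both members were among them. An adjusted limma p-value under 0.05 was reached by 0 of the members and by 0% of the 205 genes, although 22 genes of the table had an unadjusted p-value under 0.05. The deleted gene Sirt2, whose groups did not overlap, was not called either (log2 fold change -1.62, adjusted p = 0.300 in limma). The lack of a call in this fit is therefore no evidence that a gene was unchanged. Higher genes with an unadjusted p-value below 0.05 made up 6.34% of the table, and higher genes with no overlap between the groups 23.4%, and neither member belonged to either class. Their shared arrangement, with SIRT2-KOhep mice 1 and 2 above every LoxP mouse and mouse 3 within the LoxP range, was noticed after the values were seen. It occurred in 37 of the 205 genes (18%), so the members are 2 of many genes with it. By log2 fold change on log2(FPKM + 1), Igfbp1 ranked 34 and Pdk4 45 of 205, where 0.34 was the median of all listed genes. That median depends on the +1, and was 0.921 with a pseudocount of 0.1 and 1.091 with 0.01. With 0.01, Igfbp1 (1.085) was below the median and Pdk4 (1.286) above it. By the ratio of mean FPKM, Pdk4 ranked 77 and Igfbp1 117 among the 134 higher genes with a LoxP mean above 0.

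Single mice set much of the size of both differences. Without SIRT2-KOhep mouse 3 the log2 fold change was 1.40 for Pdk4 (adjusted p = 0.166 in limma) and 1.51 for Igfbp1 (adjusted p = 0.226 in limma). Without SIRT2-KOhep mouse 1 that of Pdk4 was 0.57. Without SIRT2-KOhep mouse 2 that of Igfbp1 was 0.55, and without LoxP mouse 3, the lowest for this gene, it was 0.49. Dividing every library by a median-ratio factor taken from the listed genes gave 0.38 for Pdk4 and 0.31 for Igfbp1, and moved the median of all listed genes from 0.34 to 0.12. The direction was positive for both genes in each of these settings.

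**Figure D2:**
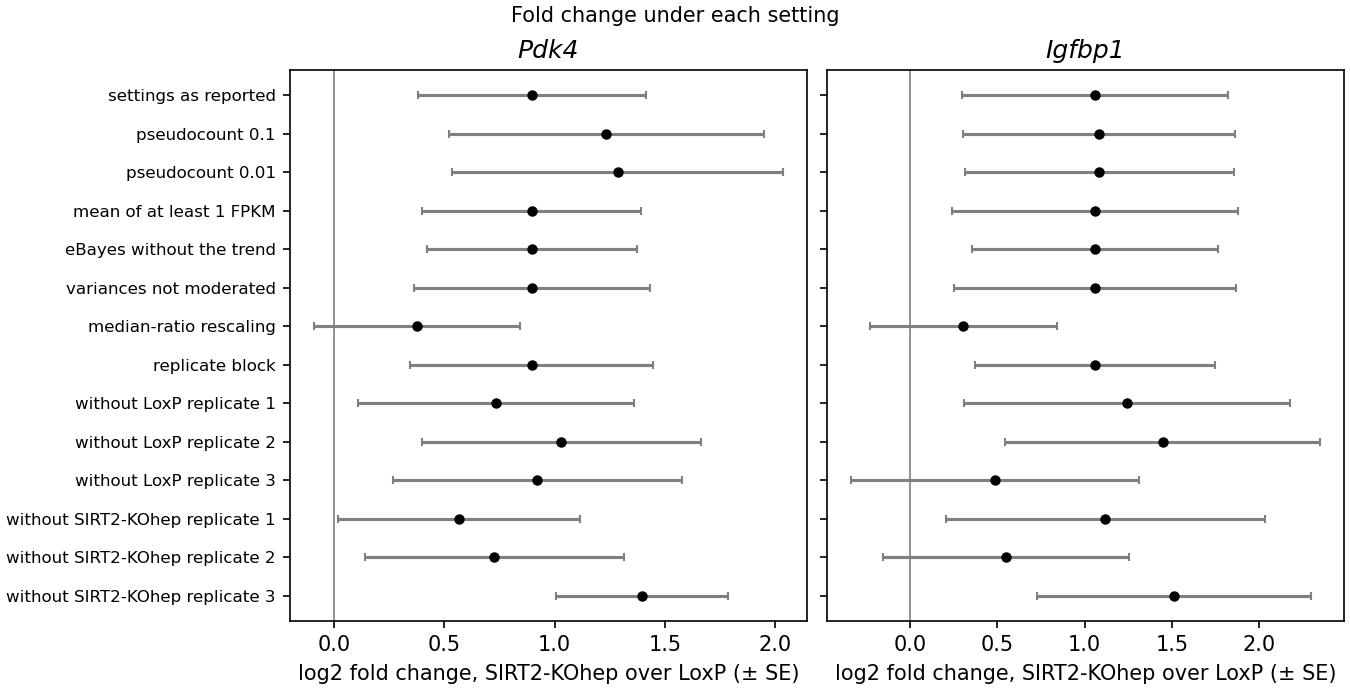
Log2 fold change of Pdk4 and Igfbp1 (points, with the standard error as bars) as reported and under each alternative setting. All points lie above 0, from 0.38 to 1.40 for Pdk4 and from 0.31 to 1.51 for Igfbp1.

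Whether the 2 genes moved together was asked mouse by mouse. LoxP mouse 2 had the most Pdk4 and the most Igfbp1 of its group, and SIRT2-KOhep mouse 3 the least of both in its own. The top of the SIRT2-KOhep group was split, with mouse 1 highest for Pdk4 and mouse 2 highest for Igfbp1. Relative to the mean of its genotype on the log2 scale, SIRT2-KOhep mouse 1 deviated by 0.66 for Pdk4 and by -0.12 for Igfbp1, and mouse 2 by 0.34 and 1.02. LoxP mouse 3 deviated by 0.05 for Pdk4 and by -1.14 for Igfbp1. Both deviations had the same sign in 3 of 6 mice (LoxP mouse 2, SIRT2-KOhep mice 2 and 3).

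Over the 6 mice, Pearson's r of log2(FPKM + 1) was 0.649 (exact permutation p = 0.158) and Spearman's rho was 0.714 (exact permutation p = 0.136), both two-sided and the only relation tested. Without SIRT2-KOhep mice 1 and 2, the 2 farthest from the median of Pdk4, r was 0.0381 over the 4 mice left, which span a narrower range of Pdk4. Leaving out mouse 1 alone gave 0.742 and leaving out mouse 2 alone 0.478. After the median-ratio rescaling, whose factors absorb part of the genotype difference, r was 0.230 (exact permutation p = 0.661). For the deviations from the genotype means r was 0.464. A place in the table goes with a difference between these groups, though the selection rule is not known. Both genes had the higher mean in SIRT2-KOhep livers, which by itself gives the pooled values a common direction.

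**Figure D3:**
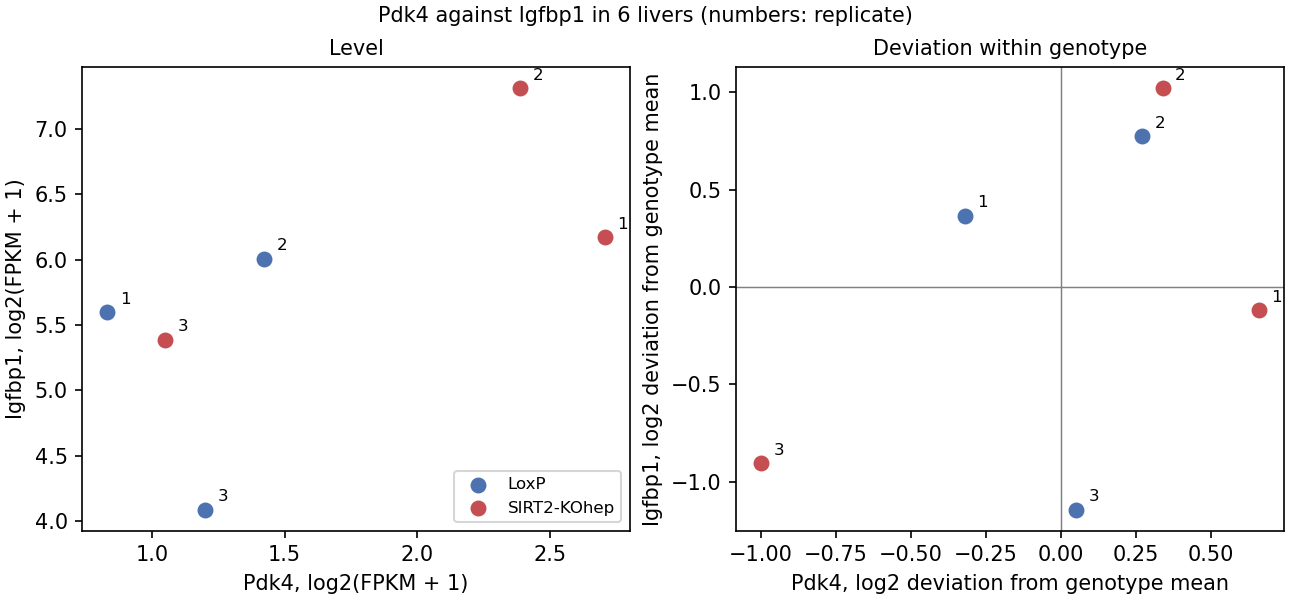
Igfbp1 against Pdk4 in the 6 livers as log2(FPKM + 1) on the left and as the log2 deviation from the mean of the own genotype on the right, numbered by replicate. SIRT2-KOhep mice 1 and 2 stand to the right of the other 4 on the left panel, and LoxP mouse 3 has little Igfbp1 for its Pdk4.

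The ratio of the 2 transcripts in a liver does not depend on how that library was scaled. Igfbp1 was 60.8, 37.7 and 12.3 times as abundant as Pdk4 in LoxP mice 1 to 3, and 12.9, 37.3 and 38.2 times in SIRT2-KOhep mice 1 to 3. The range of the LoxP mice contained that of the SIRT2-KOhep mice. The mean log2 ratio was 4.93 ± 1.18 (SD, n = 3) in LoxP and 4.72 ± 0.90 (SD, n = 3) in SIRT2-KOhep livers, a difference of -0.21 (two-sided exact permutation test, p = 0.9). A shift of one gene against the other between genotypes was not detectable with these mice.

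Neither gene followed the residual Sirt2 level in a way that 3 mice per genotype could test. Among SIRT2-KOhep livers Sirt2 differed 1.19-fold between the lowest and highest mouse, where Pdk4 differed 5.17-fold and Igfbp1 3.86-fold. Mouse 3, with both members at LoxP levels, had 8.58 FPKM of Sirt2, next to 8.45 FPKM in mouse 2, which had the most Igfbp1. Mouse 1 had the least Sirt2 and the most Pdk4. In LoxP livers mouse 2 was highest for all 3 genes. A pooled correlation with Sirt2 would repeat the genotype contrast and is not given.

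Few genes of the name lists drawn up for the fasting and insulin program were in the deposited selection. Genes of that program outside these lists were not looked for, and levels of genes outside the selection were not analysed here. Of 32 fasting-induced or insulin-repressed genes of the liver, among them the gluconeogenic genes Pck1 and G6pc as well as the hormone gene Fgf21, the members were the 2 that were listed, with a median log2 fold change of 0.98. Of 11 genes of the pyruvate dehydrogenase kinases, phosphatases and complex, Pdk4 was the single one listed. Igfbp1 was likewise the single listed gene of 12 in the insulin-like growth factor axis, and Sirt2 of 17 in insulin signalling to FOXO1. None of the 13 ATF4 and hypoxia genes searched for was listed, which says nothing of other genes of these responses. None of these genes passed the adjusted threshold in limma.

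Of 23 genes that insulin or feeding induces, Fabp5, a fatty acid binding protein, was listed. Its values were 16.9, 25.2 and 11.1 FPKM for LoxP and 144, 22.3 and 18.1 FPKM for SIRT2-KOhep mice (log2 fold change 1.17, adjusted p = 0.313 in limma). SIRT2-KOhep mouse 1, the liver with the most Pdk4, stood apart, and the other 2 were within the LoxP range.

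Of 12 glucocorticoid-induced genes, 4 were listed and 0 passed the adjusted threshold in either direction. The metallothionein genes Mt1 and Mt2, which bind zinc and copper, were at 163 and 90.2 FPKM in SIRT2-KOhep mouse 1, against 158 to 629 and 78.9 to 320 FPKM in LoxP mice. They were at 2809 and 2482 FPKM in mouse 2 and at 622 and 487 FPKM in mouse 3, where Mt2 was above every LoxP mouse. Lcn2, which encodes a siderophore-binding protein, had 85.0, 45.7 and 20.6 FPKM in the LoxP group against 125, 1649 and 53.8 in the SIRT2-KOhep group, with mice 1 and 2 above every LoxP mouse. Dusp1, a phosphatase of MAP kinases, had a lower mean in SIRT2-KOhep livers, 17.7 ± 8.18 FPKM (SD, n = 3) against 39.7 ± 25.5 (SD, n = 3).

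Likeness of pattern was measured as Pearson's r of log2(FPKM + 1) over the 6 mice, as a description in which the points share their libraries. The 107 other genes averaging 1 FPKM or more over all 6 mice were compared. A gene could pass this filter through its SIRT2-KOhep values alone. Most listed genes had the higher mean in SIRT2-KOhep livers, which by itself gives such genes a common direction and raises r. The 5 genes closest to Pdk4 were Tfrc, the transferrin receptor (r = 0.931), Apcs, serum amyloid P (0.899), Dnajc12, a co-chaperone (0.889), Prtn3, a granule protease of myeloid cells (0.889), and the globin gene Hbb-bt (0.872). LoxP mice 1 to 3 had 5.21, 5.69 and 3.82 FPKM of Tfrc and SIRT2-KOhep mice 13.1, 13.6 and 3.61, so SIRT2-KOhep mice 1 and 2 were above every LoxP mouse, as for Pdk4, while mouse 3 was below all of them. Igfbp1 ranked 33 of the 107 for Pdk4, where the median r was 0.506.

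The 5 genes closest to Igfbp1 were Slc13a5, the citrate transporter of hepatocytes (r = 0.953), S100a9 (0.938) and S100a8 (0.920), the calprotectin subunits, Lrg1, a secreted leucine-rich glycoprotein (0.899), and Olfr1034, an olfactory receptor gene (0.895). Slc13a5 had 0.73, 0.92 and 0.4 FPKM in the LoxP group against 1.34, 2.28 and 0.74 in the SIRT2-KOhep group, with the dip in LoxP mouse 3 that Igfbp1 shows and the peak in SIRT2-KOhep mouse 2. The pair had no gene in common among their closest 5, and Pdk4 ranked 52 of the 107 for Igfbp1, where the median r was 0.627.

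**Figure D4:**
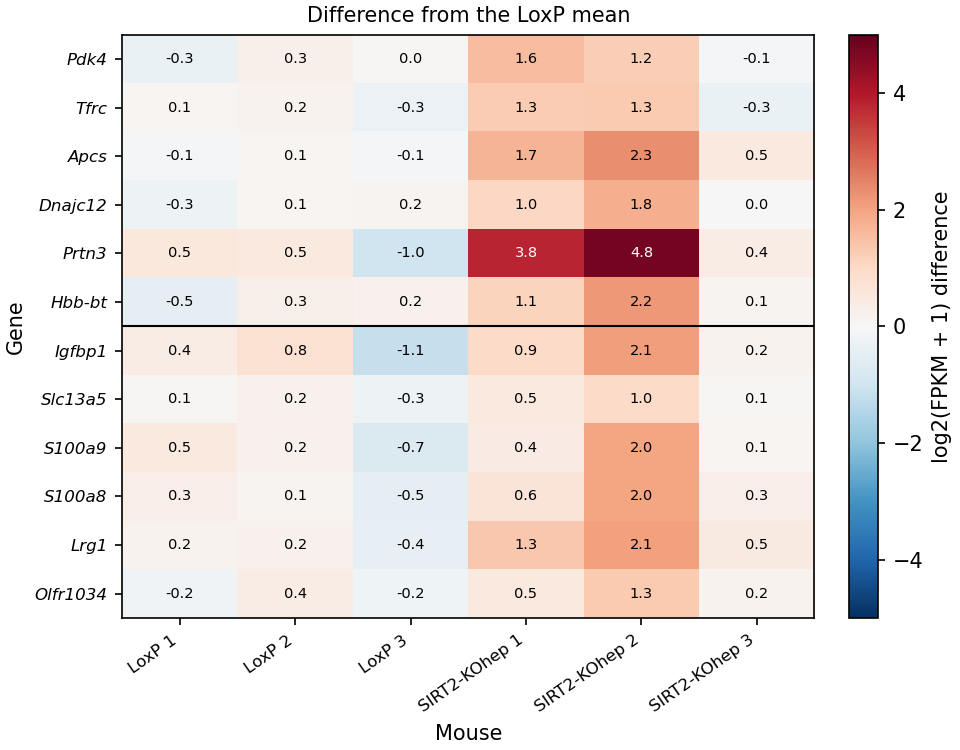
Difference from the LoxP mean on log2(FPKM + 1) in each mouse for Pdk4 and its 5 closest genes (above the line) and Igfbp1 and its 5 closest (below it), red above and blue below the LoxP mean. SIRT2-KOhep mouse 1 is highest for Pdk4 alone, and SIRT2-KOhep mouse 2 is highest for the other 11 genes.

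Summed markers of red blood cells and neutrophils were also above every LoxP liver in SIRT2-KOhep mice 1 and 2 and inside the LoxP range in mouse 3. Red blood cell markers (5 of 6 listed, Hba-a1, Hba-a2, Hbb-bs, Hbb-bt and Slc4a1, none at 0) summed to 1085 to 1819 FPKM in LoxP livers and to 2680, 6756 and 1601 FPKM in SIRT2-KOhep mice 1 to 3. Neutrophil markers (6 of 10 listed, with Camp at 0 in LoxP mouse 2) summed to 6.8 to 15.1 FPKM in LoxP livers and to 18.4, 49.8 and 12.6 FPKM in SIRT2-KOhep livers. S100a9, however, was at 7.36 FPKM in SIRT2-KOhep mouse 1, below the 7.85 FPKM of LoxP mouse 1. In SIRT2-KOhep mouse 3, S100a8 (5.84 FPKM) was just above and Slc4a1 (0.16 FPKM) just below the LoxP range. The other listed markers of both cell types had the arrangement of the sums. Hepatic acute phase genes (12 of 26 listed) summed to 2442 to 3665 FPKM in LoxP livers and to 4338, 28650 and 4102 FPKM in SIRT2-KOhep livers, so here mouse 3 was above every LoxP mouse too. Their members did not all follow the sum. Hamp, which encodes the iron hormone hepcidin, had 225, 59.0 and 182 FPKM in LoxP and 12.4, 3.03 and 136 FPKM in SIRT2-KOhep mice, and Orm3, an orosomucoid gene, was at 9.73 FPKM in SIRT2-KOhep mouse 1 against 11.1 to 30.4 FPKM in LoxP mice. In SIRT2-KOhep mouse 3 the acute phase genes Saa2, Orm1, Orm2, Orm3, Lrg1, Apcs and Mt2 were above every LoxP mouse. Saa1, Lcn2, Serpina3n, Mt1 and Hamp were within the LoxP range in that mouse. Each sum was highest in SIRT2-KOhep mouse 2, as Igfbp1 was, whereas Pdk4 was highest in mouse 1.

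The 2 listed B and plasma cell markers of 8, Jchain and Mzb1, summed to 4.17 to 5.02 FPKM in LoxP livers and to 7.95, 17.0 and 3.63 FPKM in SIRT2-KOhep livers. The 2 listed acinar markers of 11, Ctrb1 and Reg1, were at 0 in LoxP livers and summed to 0.13, 6.79 and 0 FPKM in SIRT2-KOhep livers. None of 8 markers of skeletal and heart muscle and none of 7 adipocyte markers, tissues with high Pdk4, was listed. No marker gene passed the adjusted threshold. The part of these other cells and of inflammation in the values of Pdk4 and Igfbp1 was not tested.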

How the data were processed

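Liver RNA-seq of 3 LoxP and 3 SIRT2-KOhep mice was analysed, grouped by sample title. The deposited file holds FPKM for 205 genes (2 decimals, 1 column per mouse), computed by the authors. The submitters' processing notes name mm10; the aligner, the counting and the rule that selected these genes are not given in the sources used here. Libraries were made after mRNA enrichment or rRNA removal, without saying which. RefSeq (GRCm38.p6) named 203 of the 205 gene IDs. Of 42 weakly expressed genes, 1 had values that were whole multiples of a common step (within 0.006 FPKM). The search took 1 step per gene for all libraries and no step under 0.05 FPKM. It could not find steps that are smaller or that differ between libraries, so depth and counting error are unknown.

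Values were transformed to log2(FPKM + 1) and fitted with limma 3.58.1 in R 4.3.3 (genotype term; eBayes, trend on). P-values were adjusted by Benjamini-Hochberg across the whole table, and 0.05 was the threshold. Exact permutation tests used scipy 1.17.1. The paper's methods name no test for these data. Named genes were the pair, Sirt2, the listed members of the gene and marker lists and the 5 genes most like each member. In each of 2 lists, 1 gene is not reported here. The pair, the lists and the tests were chosen with earlier results of these data known. The deviations of same-numbered mice correlated at -0.19, 0.03 and 0.34, which gives no pairing by number.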

Additional observations from a re-analysis of the deposited data

How the results depend on the processing

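The log2 fold changes of Pdk4 and Igfbp1 stayed positive and short of the adjusted threshold under all 13 alternatives: a pseudocount of 0.1 or 0.01, a filter at 1 FPKM, eBayes without a trend, unmoderated variances, rescaling, the replicate number as a block, and each mouse left out. Adjusted p-values from limma ranged from 0.166 to 0.667 for Pdk4 and from 0.226 to 0.725 for Igfbp1. Leaving out 1 mouse gave 0.57 to 1.40 for Pdk4, 0.49 to 1.51 for Igfbp1 and -1.67 to -1.55 for Sirt2. Sirt2 (log2 fold change -1.62) was called in limma when the trend was dropped (-1.62, adjusted p = 0.0120) and with unmoderated variances (-1.62, adjusted p = 0.00819), and its adjusted p-value ranged from 0.00819 to 0.496 over the 13. The count of listed genes past the threshold, 0 in the report, was 1 in each of these settings (Sirt2) and 0 to 2 when a mouse was left out, the 2 being H2bc23 and H4bc24 without SIRT2-KOhep mouse 2. With the replicate block the log2 fold change was 0.90 for Pdk4 and 1.06 for Igfbp1, 0 genes passed, and no call changed. The r of Pdk4 with Igfbp1 was 0.230 after rescaling (exact permutation p = 0.661) and 0.478 to 0.742 when a mouse was left out. The cause was not tested. Depth is unknown, so counting error and variation between mice could not be told apart.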
